A study of Mus musculus with 4 samples.

Results

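Hepatokines are proteins that the liver releases into the blood and that act on other tissues. The transcripts of 8 hepatokine genes (Ahsg, Fetub, Lect2, Inhbe, Igfbp2, Igfbp4, Tsku and Enho) were examined in the livers of mice with diet-induced metabolic dysfunction-associated steatohepatitis (MASH). The genes were chosen by symbol with earlier results of these data known, as were the gene lists set beside them. All 8 were found once each among the 24138 rows of the deposited gene table. The samples were 4 livers from male C57BL/6J mice aged 18 weeks, all given the FAT-MASH diet and all treated with resolvin D1 (RvD1), a lipid mediator of the resolution of inflammation. They are 1 group, numbered 1 to 4 as in the sample titles, and no liver without the diet or without RvD1 was analysed here. No effect of either can therefore be read from the values, which give the level of each transcript and its spread between livers. Each liver was taken as 1 animal, which the titles do not state.

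Several of these proteins act on insulin or growth factor signalling. Fetuin-A (Ahsg) inhibits the insulin receptor, the binding proteins Igfbp2 and Igfbp4 hold insulin-like growth factors (IGFs) in the circulation and in tissue, and activin E, a dimer of the Inhbe product, restrains fat breakdown in adipose tissue. Fetuin-B (Fetub) inhibits the protease ovastacin, Lect2 is a chemotactic protein that binds the receptors Met and Tie1, Tsukushi (Tsku) is a secreted leucine-rich repeat protein linked to energy expenditure, and adropin (Enho) is a small secreted protein linked to glucose and lipid use. In a whole liver, fewer cells of a type and less RNA per cell cannot be told apart.

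Levels were given in FPKM, fragments scaled to transcript length and to library depth, which permits comparison between genes. The estimated depth was between 18.8 and 20.1 M fragments (M, mega) per liver. This estimate used only values inside a fixed window, which limits the depths it can return, so it is a rough figure. Of the 24138 rows, 10541 had a mean of at least 1 FPKM and were called expressed; 7 of the 8 hepatokine genes were among them, and Enho was not. Together the 8 genes made up 0.880%, 1.06%, 1.38% and 1.03% of all FPKM in livers 1 to 4. The mean share was 1.09 ± 0.211% (SD, n = 4), of which Ahsg alone contributed 0.703%. The total holds nothing for the albumin gene Alb, which was listed at 0.

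Liver markers were examined beside the hepatokines. Of the hepatocyte markers, 6 of 7 were expressed and Alb was listed at 0 in every liver, although Ttr and Apoa1 were abundant. An exact 0 for such a gene can be a failed estimate. For hepatocytes the summed marker level, mostly Apoa1 and Ttr, was 18334 and 18447 FPKM in livers 2 and 3, the lowest, and 23242 FPKM in liver 4, the highest. Of the 6 expressed markers, 1 (Cps1) was lowest in liver 2, against 29.9% of all expressed genes. The sums were highest in liver 2 for stellate cells and fibroblasts (194 to 298 FPKM over the livers), endothelial cells (41.9 to 54.5 FPKM, with liver 4 at 53.3), cholangiocytes (17.6 to 21.9 FPKM), lymphocytes (1.55 to 1.94 FPKM) and mesothelium (0.572 to 2.71 FPKM). Of the 6 endothelial markers 4 were highest in liver 2, while Clec4g, the largest part of the sum, was highest in liver 4 and Cdh5 in liver 3. Of the single markers of the smaller sums, Epcam was the only cholangiocyte gene of 4, and Cd3e the only lymphocyte gene of 3, that was highest in liver 2. Macrophage markers summed to 146, 190, 147 and 197 FPKM in livers 1 to 4, so that livers 1 and 3 were low and livers 2 and 4 high; with median-ratio scaling liver 2 was above liver 4. Of the 5 macrophage markers, Cd68, Adgre1 and Clec4f were lowest in liver 3, and Lyz2 and Csf1r in liver 1. The erythroid sum was lowest in liver 3 (427 FPKM) and highest in liver 1 (1076 FPKM; Hbb-bs was not analysed here). It was mostly the 2 rows of Hba-a1, and Alas2, at 55.8, 43.8, 64.0 and 57.0 FPKM, was instead highest in liver 3 and lowest in liver 2. The adipocyte sum ranged from 0.609 to 4.49 FPKM and was nearly all Cfd, whose deposited span is shared with 48 other rows. Adipoq was at 0.0528 FPKM or less, and Plin1 and Lep were listed at 0 in every liver. Acute phase transcripts, as a list of 13 genes, summed to 21249 FPKM in liver 2 while the remaining livers had 9483 to 12797 FPKM. Of the 13 genes, 12 were highest in liver 2, against 22.0% of all expressed genes.

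Ahsg was the most abundant of the 8 transcripts, ranked 16th of all rows, with Alb listed at 0, by its mean of 3735 ± 831 FPKM (SD, n = 4). It was followed by Igfbp4 at 975 ± 137 FPKM, Igfbp2 at 461 ± 117 FPKM, Fetub at 345 ± 49.9 FPKM and Lect2 at 151 ± 27.9 FPKM (each SD, n = 4). Tsku had 76.0 ± 39.6 FPKM, Inhbe 40.02 ± 10.1 FPKM and Enho 0.633 ± 0.317 FPKM (each SD, n = 4). The 5 most abundant lay above at least 94.8% of expressed genes, and Inhbe lay above 84.4% of them.

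Of the 7 pairs of neighbours in this order, 6 had the same direction in all 4 livers. The exception was Igfbp2 and Fetub, whose means differed 1.34-fold. Igfbp2 was above Fetub in livers 1, 3 and 4 and below it in liver 2 (exact permutation test over the livers, two-sided, p = 0.25). For the other 6 pairs the same exact test gave the smallest p that 4 livers allow, 2 of 16 sign assignments. No pair could therefore reach 0.05, and adjustment over the 7 pairs could only raise the values. Among these 6, the ranges of Lect2 and Tsku overlapped, as did those of Tsku and Inhbe, although the first of each pair was higher within every liver.

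**Figure D1:**
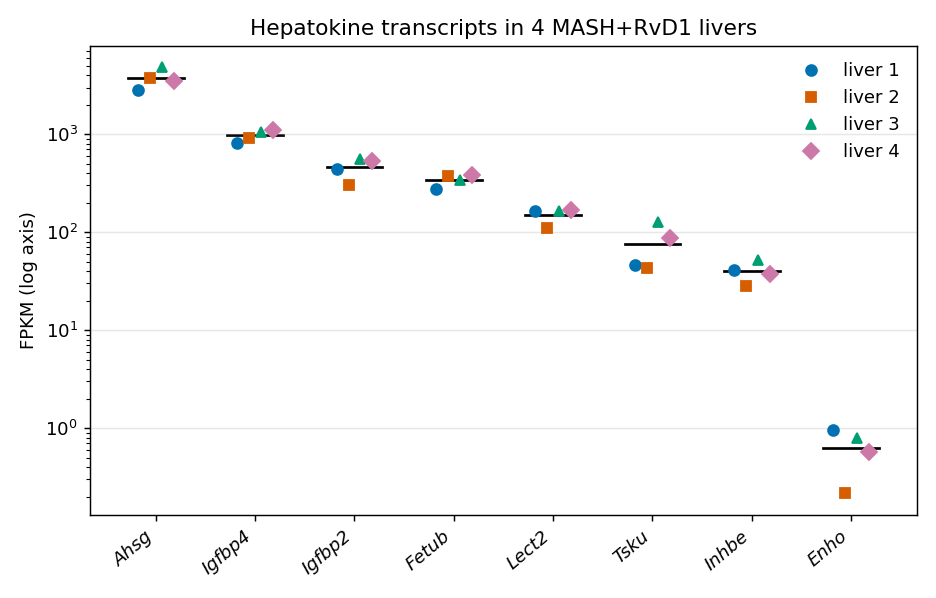
FPKM (log axis) of the 8 hepatokine transcripts in each of the 4 MASH+RvD1 livers (points), with the mean as a black line. Ahsg is highest with a mean of 3735 FPKM, Enho is lowest at 0.633 FPKM, and the orange square of liver 2 is the lowest point for Igfbp2, Lect2, Tsku, Inhbe and Enho.

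Which liver was lowest differed between the genes. Lect2, Inhbe, Igfbp2, Tsku and Enho were lowest in liver 2, Ahsg, Fetub and Igfbp4 were lowest in liver 1, and 0 of the 8 were lowest in liver 3 or liver 4. Among the 7 expressed members, 4 were lowest in liver 2, against 29.9% of all expressed genes, and 3 in liver 1, against 20.7%. Of all expressed genes, 31.4% were lowest in liver 3 and 18.1% in liver 4. Ahsg, Inhbe, Igfbp2 and Tsku, that is 4 of the 7, were highest in liver 3, against 26.8% of all expressed genes. The other 3 expressed members, Fetub, Lect2 and Igfbp4, were highest in liver 4 as deposited, against 33.3% of all expressed genes, but with median-ratio scaling of the libraries, and with an equal sum, they were highest in livers 2, 1 and 3 in that order. Under median-ratio scaling 5 of the 7 were highest in liver 3, against 30.4% of all expressed genes, and 0 in liver 4, against 22.7%. Of all 8 genes, 3 (Inhbe, Igfbp2 and Tsku) were both lowest in liver 2 and highest in liver 3, a pattern held by 12.6% of expressed genes. Liver 2 was also the liver with the highest acute phase and stellate sums given above, and its endothelial sum was close to that of liver 4; the part of these in the low values was not tested.

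The upstream sequences of these 3 genes are shown because their transcripts were lowest and highest in the same livers. They were taken from RefSeq (GRCm38.p6), end just before the outermost annotated start, and are written 5′ to 3′ on the gene's strand. Capitals mark matches to the motifs listed after them. The windows are chr7:98361391-98361578 (minus strand, 188 bases) for Tsku, chr1:72824230-72824479 (plus strand, 250 bases) for Igfbp2 and chr10:127351849-127352098 (minus strand, 250 bases) for Inhbe.
Tsku: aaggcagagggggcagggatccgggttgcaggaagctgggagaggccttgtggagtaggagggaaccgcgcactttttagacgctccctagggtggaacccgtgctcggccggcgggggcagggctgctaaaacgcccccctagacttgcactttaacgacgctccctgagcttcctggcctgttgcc
Igfbp2: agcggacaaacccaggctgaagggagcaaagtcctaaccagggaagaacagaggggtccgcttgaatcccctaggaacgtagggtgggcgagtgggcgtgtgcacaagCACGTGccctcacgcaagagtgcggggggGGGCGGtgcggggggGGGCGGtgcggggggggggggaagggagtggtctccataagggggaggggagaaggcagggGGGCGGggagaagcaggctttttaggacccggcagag
Inhbe: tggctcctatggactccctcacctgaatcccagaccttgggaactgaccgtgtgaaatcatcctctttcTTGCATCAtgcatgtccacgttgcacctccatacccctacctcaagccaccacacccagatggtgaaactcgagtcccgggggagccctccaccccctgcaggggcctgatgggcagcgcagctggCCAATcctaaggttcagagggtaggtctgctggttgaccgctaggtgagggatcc

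A total of 8 motifs were searched on both strands in the 250 bases before a start, in the 7 hepatokine genes with an entry and in all 32851 windows of the RefSeq table. Enho had no entry. The E-box CACGTG, held by 6.02% of all windows, was found in Igfbp2 only, at position -142 from the start. The element TGATGNAA, bound by C/EBP and ATF factors and held by 3.45% of windows, was found in Inhbe only, on the opposite strand at -181. The GC box GGGCGG (32.7% of windows) was found in Igfbp2 at -113, -98 and -37, in Fetub at -186, and in Tsku at -22 and -9 from a start that lies 62 bases inside the outermost one, so these last are outside the sequence shown. The CCAAT box (33.8% of windows) was found in Inhbe at -55 and in Fetub at -218 on the opposite strand. A TATA box TATAAA (12.4% of windows) was found in Fetub at -31 and Igfbp4 at -28 from a start inside its outermost RefSeq start, neither of which was among the 3 genes. The FOXA motif TGTTTAC (3.17%), the STAT motif TTCNNNGAA (7.02%) and AGGTCA, a site of ROR and other nuclear receptors (14.0%), were in 0 of the 7 windows. No motif searched was found in all 3 of Tsku, Igfbp2 and Inhbe.

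Of the fetuins, Ahsg was the most abundant member and Fetub varied less than most of the others. Ahsg (XLOC_007883) was at 2826, 3766, 4829 and 3519 FPKM in livers 1 to 4. It was highest in liver 3 and lowest in liver 1, a 1.71-fold range. Its deposited span (mm10 per the submitters' processing notes, chromosome 16, 22857845 to 22899451) is shared with the chaperone gene Dnajb11 (35.5 ± 3.38 FPKM, SD, n = 4) and the long non-coding RNA Gm30505, which was between 0.145 and 0.813 FPKM. RefSeq places Ahsg itself at 22892015 to 22899451 and Gm30505 over part of it, and whether the counting used strand is not given in the sources used here.

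Fetub (XLOC_007884, chromosome 16, 22918382 to 22939768) was at 275, 376, 343 and 385 FPKM in livers 1 to 4. Liver 1 was low and the other 3 livers lay close together, a 1.40-fold range in all. Both fetuins were thus lowest in liver 1. The ratio of Ahsg to Fetub within a library, which does not depend on how the library is scaled, was 10.3, 10.01, 14.1 and 9.13 in livers 1 to 4, with a mean of 10.9 ± 2.198 (SD, n = 4). Liver 3 stood above the other 3 livers in this ratio: Ahsg was highest there and Fetub was not.

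The fetuin genes lie in a row with other genes of the cystatin family. Fetub starts 26.4 kb after Ahsg, followed by Hrg, the gene of histidine-rich glycoprotein, and by the kininogen genes Kng2 and Kng1, whose products are precursors of bradykinin. Hrg was at 706, 677, 931 and 996 FPKM, and Kng1 at 1113, 1350, 1120 and 1489 FPKM in livers 1 to 4. Kng2 had 176 ± 20.7 FPKM (SD, n = 4). The 5 neighbours did not share an order of livers: Ahsg was highest in liver 3 and Hrg alone was lowest in liver 2, under each scaling. The other 4 were highest in liver 4 as deposited, but Fetub was highest in liver 2 with median-ratio scaling, and with an equal sum Fetub and Kng2 were highest in liver 2 and Hrg in liver 3. Of the 8 genes in the list of cystatin family members and fetuin targets, 5 were expressed and 0 had a highest liver at least 1.5-fold above the lowest, a range found for 28.4% of all expressed genes. Cst3 had 280.4 ± 32.4 FPKM and Cstb 58.0 ± 3.47 FPKM (each SD, n = 4). Astl, the gene of ovastacin, and Mep1a, a meprin subunit, were listed at 0 in all 4 livers, and Mep1b was between 0.0521 and 0.118 FPKM.

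**Figure D2:**
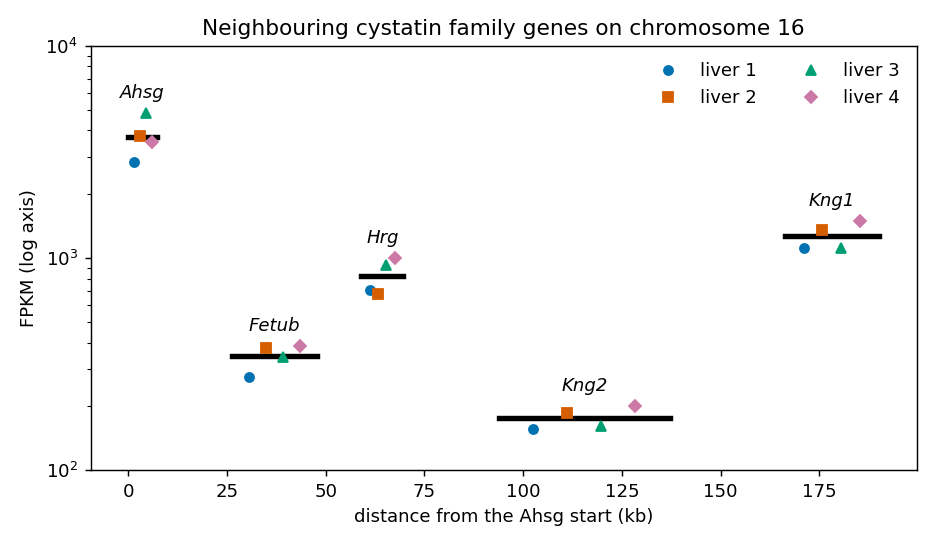
FPKM (log axis) of 5 neighbouring genes on chromosome 16 in each of the 4 livers (points), against distance from the Ahsg start in kb. Black bars span each gene at its mean, which is highest for Ahsg (3735 FPKM) and lowest for Kng2 (176 FPKM), with no steady trend along the row.

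The IGF binding proteins differed from each other in spread. Igfbp4 (XLOC_003138, chromosome 11, 99041260 to 99052643) was at 819, 906, 1062 and 1115 FPKM in livers 1 to 4. Livers 3 and 4 were above livers 1 and 2, and the range was 1.36-fold. Igfbp2 (XLOC_000186, chromosome 1, 72824480 to 72852471) was at 439, 305, 562 and 538 FPKM. Liver 2 was low, livers 3 and 4 were high, and the range was 1.84-fold. The ratio of Igfbp2 to Igfbp4 was 0.536, 0.337, 0.529 and 0.483 in livers 1 to 4, with a mean of 0.471 ± 0.0926 (SD, n = 4). Liver 2 was the lowest in this ratio too.

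Other genes of the IGF axis were set beside these. Of the 16 genes listed, 10 were expressed. Of these, 5 had a 1.5-fold range, 6 were highest in liver 2 and 0 were lowest there. Among all expressed genes the shares were 28.4%, 22.0% and 29.9%. Igfbp1, whose transcription is repressed by insulin, was at 59.3, 104, 19.6 and 20.1 FPKM in livers 1 to 4, so that the livers with the highest Igfbp1 had the lowest Igfbp2. The ratio of Igfbp2 to Igfbp1, a comparison chosen after the values were seen, was 7.41, 2.94, 28.7 and 26.7. Livers 3 and 4 were thus apart from livers 1 and 2.

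Igf1, the growth factor that these proteins bind, was at 119.6, 142, 175 and 176 FPKM in livers 1 to 4. Igfals, which encodes the acid-labile subunit of the circulating IGF complex, was at 28.1, 52.4, 51.1 and 61.9 FPKM. Both were lowest in liver 1, as Igfbp4 was. Igfals was highest in liver 4, whereas Igf1 was nearly equal in livers 3 and 4, and both Igf1 and Igfbp4 were highest in liver 3 with either rescaling. Igfbp3, which carries most circulating IGF, had 10.2 ± 2.64 FPKM, Igfbp7 343 ± 61.5 FPKM and the growth hormone receptor gene Ghr 229 ± 18.1 FPKM (each SD, n = 4). Igfbp5 and Igfbp6 had 2.28 ± 0.780 and 1.21 ± 0.671 FPKM (each SD, n = 4). Igfbp3, Igfbp5, Igfbp6 and Igfbp7 were all highest in liver 2, where the stellate and fibroblast markers also summed highest. Most of that sum was Dcn, and 4 of the 7 markers (Dcn, Col1a1, Col3a1 and Pdgfrb) were highest in liver 2, against 22.0% of all expressed genes, while Des and Lrat were highest in liver 1 and Reln in liver 4 (liver 1 with an equal sum). The part of those cells in these values was not tested. The insulin receptor gene Insr had 10.5 ± 1.19 FPKM and Igf2r 5.62 ± 0.565 FPKM, whereas Igf1r, the main receptor of Igf1, had 0.303 ± 0.0775 FPKM (each SD, n = 4). Pappa and Pappa2, whose products cleave Igfbp4 and Igfbp5, were at 0.0289 FPKM or less in every liver, and their inhibitors Stc1 and Stc2 at 0.644 FPKM or less. Igf2 was at 0.205 FPKM or less.

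**Figure D3:**
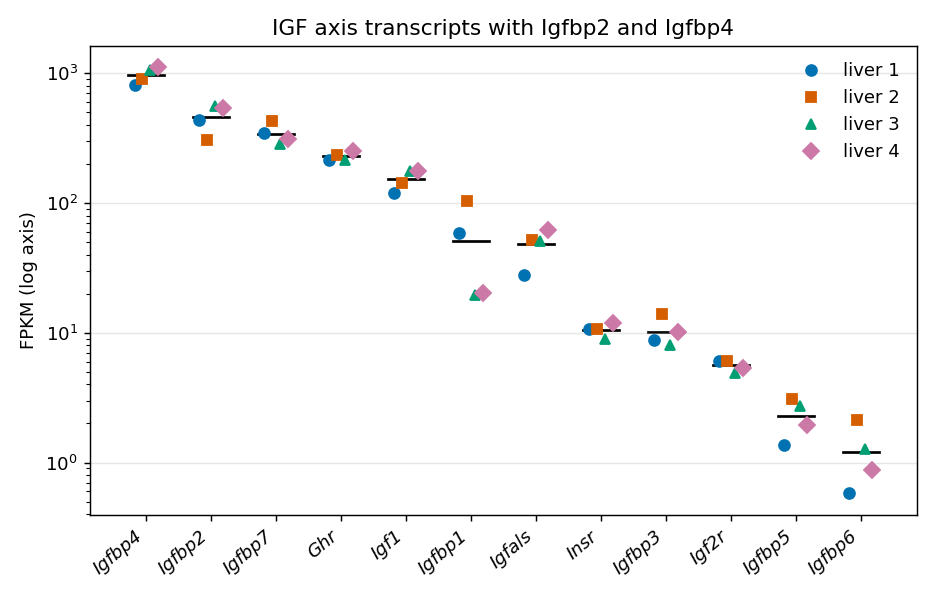
FPKM (log axis) of Igfbp2, Igfbp4 and the 10 other expressed IGF axis genes in each of the 4 livers (points), with the mean as a black line. Igfbp1 has the widest range, from 19.6 to 104 FPKM, and its liver 2 point is highest where that of Igfbp2 is lowest.

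Inhbe (XLOC_002387, chromosome 10, 127349402 to 127351772) was at 41.5, 28.3, 52.7 and 37.6 FPKM in livers 1 to 4. It was highest in liver 3 and lowest in liver 2, a 1.86-fold range. Inhbc, the neighbouring gene of the activin C subunit, was at 39.6, 30.7, 34.1 and 40.6 FPKM, a 1.32-fold range. Both were lowest in liver 2, but only Inhbe was highest in liver 3. The ratio of Inhbe to Inhbc, also chosen after the values were seen, was 1.05, 0.922, 1.547 and 0.927 in livers 1 to 4.

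The other activin genes were far lower. Inhba had 1.43 ± 0.121 FPKM, Inhbb 0.342 ± 0.130 FPKM and Inha, the inhibin subunit, 0.414 ± 0.217 FPKM (each SD, n = 4). Fst, the gene of the activin antagonist follistatin, was at 2.04, 0.920, 1.06 and 1.52 FPKM in livers 1 to 4. Acvr1c, the gene of the receptor ALK7 through which activin E acts in adipose tissue, was at 0.00780 FPKM in liver 1 and listed at 0 in the others. Acvr1b and Acvr2a had 3.59 ± 0.700 and 3.54 ± 0.271 FPKM, and the signal transducers Smad2, Smad3 and Smad7 2.93 ± 0.1246, 3.24 ± 0.277 and 2.76 ± 0.268 FPKM (each SD, n = 4). Acvr2b and the antagonist gene Fstl3, whose deposited span is shared with 48 other rows, had 0.635 ± 0.0922 and 0.776 ± 0.239 FPKM (each SD, n = 4). Of the 13 genes of this list, 8 were expressed and 1, Fst, had a 1.5-fold range, against 28.4% of all expressed genes.

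Genes of the integrated stress response were examined beside Inhbe. Atf4, which encodes its main transcription factor, had 43.6 ± 3.74 FPKM (SD, n = 4). Ddit3 was at 8.61, 5.82, 4.39 and 4.57 FPKM, Trib3 at 4.79, 2.88, 2.11 and 3.07 FPKM, and Asns, a target gene of Atf4, at 1.37, 3.35, 1.86 and 5.11 FPKM in livers 1 to 4. Atf3 had 1.97 ± 0.235 FPKM (SD, n = 4). In liver 3, where Inhbe was highest, 0 of the 5 were highest (26.8% of all expressed genes) and 3, Ddit3, Trib3 and Atf3, were lowest (31.4%). Of these, Ddit3 was lowest in liver 4 with either rescaling, and with an equal sum Atf3 was lowest in liver 4 and Atf4 highest in liver 3.

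Lect2 (XLOC_005772, chromosome 13, 56542460 to 56548538) was at 166, 109.7, 163 and 168 FPKM in livers 1 to 4. Liver 2 lay below the other 3, which were within a few FPKM of each other, and the whole range was 1.53-fold. The gap from liver 2 to the nearest other liver was 0.934 of the range on the log2(FPKM + 1) scale. This is Dixon's ratio, which was read against its 95% critical value for 4 samples. Lect2 was the only one of the 8 members past it, against 5.46% of all expressed genes, and its ratio fell below that value when each library was rescaled to an equal sum. The SD of Lect2 was 0.29 on the log2 scale and 0.020 without liver 2. The receptor genes Met and Tie1 had 14.0 ± 2.47 and 3.28 ± 0.165 FPKM (each SD, n = 4). Tek, the gene of the related receptor Tie2, had 1.52 ± 0.173 FPKM (SD, n = 4), and Cd209a was between 0.395 and 0.754 FPKM.

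Tsku (XLOC_020036, chromosome 7, 98350668 to 98361328) was at 46.4, 43.2, 127 and 87.4 FPKM in livers 1 to 4. Livers 3 and 4 were both well above livers 1 and 2, and the highest was 2.94-fold above the lowest. This was the widest range of the 7 expressed members, and its SD of 0.74 on the log2 scale exceeded that of 99.5% of expressed genes. It did not rest on a single liver, since leaving out each liver in turn gave an SD between 0.55 and 0.86.

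Enho (XLOC_014989) was at 0.948, 0.216, 0.793 and 0.575 FPKM in livers 1 to 4. Liver 2 was lowest, and the range of 4.39-fold was the widest of all 8 members, but it rests on few fragments. On a transcript of 1269 bases these values correspond to about 20, 4, 17 and 12 fragments at the estimated depth. That depth rests on a fixed window of values, and another depth would change both the counts and the intervals below. The exact Poisson 95% intervals, which cover counting error only, run from 0.569 to 1.44 FPKM for liver 1, 0.0528 to 0.496 FPKM for liver 2, 0.474 to 1.30 FPKM for liver 3 and 0.308 to 1.04 FPKM for liver 4. At this depth the intervals of livers 1 and 2 do not overlap, whereas those of livers 2, 3 and 4 do in part. The deposited span (chromosome 4, 41569794 to 41640302) is shared with Dnaic1, which was listed at 0.0222 FPKM in liver 3 and at 0 in the others. RefSeq places Enho at 41638144 to 41640302, overlapping the end of Dnaic1. Gpr19, proposed as the receptor of adropin, had 2.40 ± 0.251 FPKM (SD, n = 4).

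**Figure D4:**
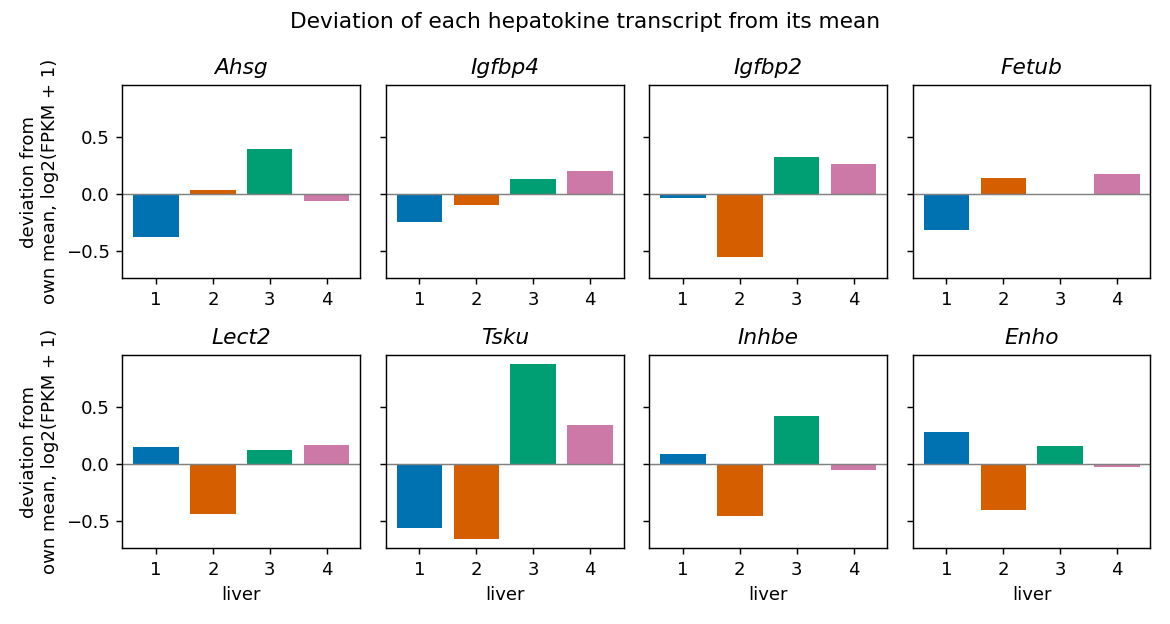
Deviation of each hepatokine transcript from its own mean, on the log2(FPKM + 1) scale (vertical axis), in livers 1 to 4 (bars), 1 panel per gene. Liver 2 is the lowest bar for Igfbp2, Lect2, Tsku, Inhbe and Enho, and Tsku reaches 0.88 in liver 3 and -0.66 in liver 2.

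Considered as a list, 5 of the 7 expressed hepatokines (Ahsg, Lect2, Inhbe, Igfbp2 and Tsku) had a highest liver at least 1.5-fold above the lowest, and Enho did as well. This range was reached by 28.4% of the 10541 expressed genes, and Lect2 fell short of it with median-ratio scaling of the libraries. Without liver 2 the number over all 8, Enho included, was 3 (Ahsg, Tsku and Enho). Of the 7 expressed hepatokines only Ahsg and Tsku then kept this range, against 19.3% of expressed genes. The median range was 1.71-fold for the 7 genes and 1.34-fold for all expressed genes. The median SD of log2(FPKM + 1) was 0.32 for the 7 genes and 0.16 for all expressed genes. For expressed genes of the related lists it was 0.28 (other hepatokines), 0.29 (IGF axis), 0.37 (integrated stress response) and 0.52 (acute phase). It was 0.17 for the cystatin list, 0.10 for the Lect2 and adropin receptors and 0.096 for the activin axis. Hepatocyte markers had 0.29. Genes were not matched for level, and the added 1 narrows the SD of genes near 1 FPKM. An SD of at least 0.25 was found for 5 of the 7 genes, against 18.3% of expressed genes. Without liver 2 this held for 2 of the 7 (Ahsg and Tsku), against 18.6% of expressed genes. Igfbp4 and Fetub had the smallest SDs of the 8, 0.21 and 0.22 (Fetub 0.089 without liver 1), and exceeded 68.6% and 73.6% of expressed genes. Inhbe (0.36) and Igfbp2 (0.40) exceeded 94.98% and 96.5% of them. Without liver 2 their SDs were 0.24 and 0.19, above 80.2% and 64.9% of expressed genes.

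**Figure D5:**
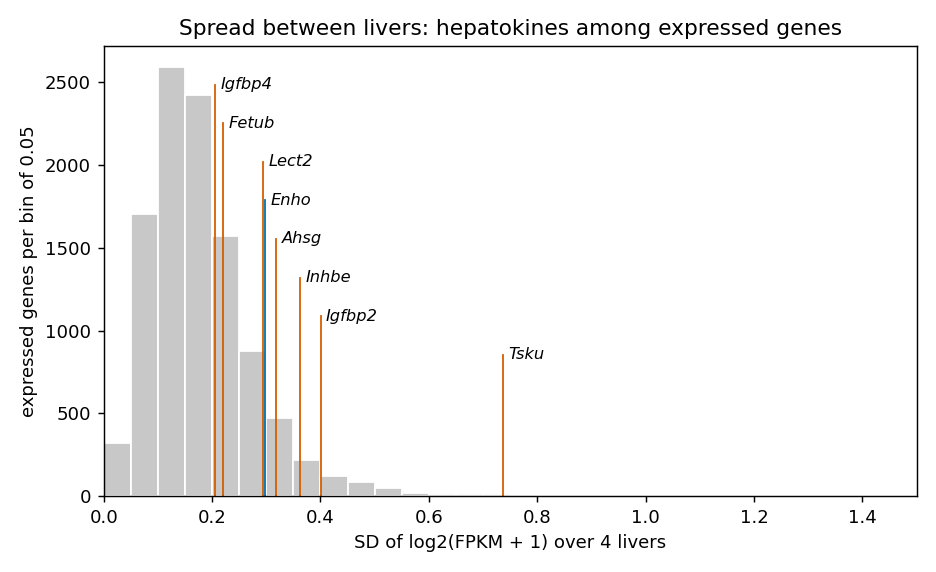
Number of expressed genes (vertical axis) by SD of log2(FPKM + 1) over the 4 livers (horizontal axis, bins of 0.05). Vertical lines mark the 7 expressed hepatokines (orange) and Enho (blue), from 0.21 for Igfbp4 to 0.74 for Tsku; 15 genes beyond 1.5 are not drawn.

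Further hepatokine genes were compared with these 8. Of 16 genes listed, 14 were expressed, 8 of them with a 1.5-fold range (28.4% of all expressed genes). Of the 14, 6 were lowest in liver 2 (29.9% of all expressed genes; 5 with either rescaling, where Manf was lowest in liver 4) and 4 were highest in liver 3 (26.8%), the last close to the share over all genes. Rbp4, the carrier of retinol, was at 4781, 4017, 4060 and 6153 FPKM in livers 1 to 4, and its mean of 4753 ± 997 FPKM (SD, n = 4) exceeded that of Ahsg, though not in liver 3. The selenium carrier Sepp1 had 3551 ± 386 FPKM and the hormone precursor Agt 326 ± 31.4 FPKM (each SD, n = 4). Hamp, the gene of the iron hormone hepcidin, was at 1258, 1276, 3213 and 1870 FPKM in livers 1 to 4. Livers 1 and 2 were lower than livers 3 and 4, as for Tsku.

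Angptl8, listed under its older symbol Gm6484 and involved in the control of lipoprotein lipase, was at 34.8, 28.3, 144 and 41.7 FPKM. It too was lowest in liver 2 and highest in liver 3, and its deposited span is shared with 2 other rows. Fgf21, a hormone of fasting and stress, was at 6.12, 5.61, 8.61 and 4.73 FPKM, and Gdf15, a hormone that lowers appetite, at 13.5, 20.2, 7.68 and 2.86 FPKM in livers 1 to 4. Their orders of livers differed, with Fgf21 highest in liver 3 and Gdf15 in liver 2. Angptl4 had 61.3 ± 4.79 FPKM, Smoc1 33.7 ± 2.95 FPKM, Manf 24.7 ± 5.42 FPKM, Dpp4 24.4 ± 1.80 FPKM, Gdf2 7.83 ± 1.73 FPKM and Angptl6 4.47 ± 0.670 FPKM (each SD, n = 4). Shbg and Ism1 were at 0.119 FPKM or less in every liver.

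The genes with the most similar profile were sought for the 6 members with an SD of at least 0.25. Likeness was the Euclidean distance between deviations from the gene mean on the log2(FPKM + 1) scale, over 4 livers, and genes averaging under 5 FPKM were left out. With 4 livers and so many genes, close profiles are found for most patterns, so these are descriptions. For Tsku the nearest were Selenbp2 (distance 0.27), at 50.2, 42.2, 122 and 72.3 FPKM, Hamp (0.33) and the oxysterol hydroxylase gene Cyp7b1 (0.36), at 23.5, 17.0, 46.6 and 33.9 FPKM. For Igfbp2 they were Apol9b (0.078), Slc25a45 (0.10) and the cytochrome P450 gene Cyp2d9 (0.10), which was at 871, 580, 1074 and 968 FPKM in livers 1 to 4. For Inhbe they were Atoh8 (0.098), Prr14 (0.11) and Isoc2b (0.12). Letm1 (0.046), Wwc1 (0.093) and Cyp3a11 (0.10) were nearest to Lect2, and Cyp3a11 was at 1938, 1416, 1961 and 2085 FPKM. Tacc1 (0.055), St5 (0.070) and Nrp1 (0.085) were nearest to Ahsg. Bsdc1 (0.043), Gstm1 (0.056) and Gm2083 (0.059) were nearest to Enho, whose own profile carries the counting error given above. No hepatokine of the 8 was among the 3 nearest genes of another.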

How the data were processed

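The deposited table lists 24138 rows with symbol, span and the values of 4 libraries. The authors' deposited values were taken to be FPKM from their form, since the header names no unit. FastQC 0.10.1, Trim Galore 0.6.3, cutadapt, STAR 2.7.6a, Cufflinks 2.2.1 and mm10 are named in the submitters' processing notes. The annotation is not given in the sources used here. Libraries were poly(A)-enriched, per the labels' protocols. Columns were matched through the sample descriptions, and 0 were left over. Spans overlapped RefSeq (GRCm38.p6) for 99.5% of 22565 symbols, and 1 was added to starts. Depth was estimated from the value of 1 fragment in 3436 genes with 1 GENCODE M21 transcript over 800 bases, less 200 bases. Only products of FPKM and length between 25 and 75 entered, and this fixed window limits the depth that can be returned. Whole reads were not recovered. Spread is the SD of log2(FPKM + 1). Analyses used Python 3.11.15, numpy 2.4.6, pandas 2.3.3 and SciPy 1.17.1. The range, Dixon's ratio and profile distance were tested on simulated data with the same noise for every gene. The planted shift was larger than the range of any expressed member, so smaller ranges were not covered. Alternatives were pseudocounts of 0.1 and 5, other minimum means, median-ratio scaling, an equal sum and leaving out each liver. Named genes were the members, the 75 genes of 7 related lists (1 further gene is not reported here), 9 marker lists, and the 3 nearest genes of each member with an SD of at least 0.25. Members and lists were chosen with earlier results of these data known.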

Additional observations from a re-analysis of the deposited data

Results flagged for a closer look

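Dixon's ratio, the gap of the most extreme liver divided by the range over all 4 on the log2(FPKM + 1) scale, was computed for the 8 hepatokines, 58 expressed genes of the related lists and 4 ratios between genes. It passed its 95% critical value for 4 of them, and chance alone marks about 5% of groups. Lect2 had a ratio of 0.934, with liver 2 low. Among the related genes, Dpp4 had 0.871, with liver 3 low at 21.8 FPKM, and Smad3 had 0.839, with liver 1 high at 3.66 FPKM. Orm1, an acute phase gene, had 0.911, with liver 2 high at 1631 FPKM.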

How the results depend on the processing

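Of 156 values recomputed for 25 results, 137 stayed within their margin and 19 moved. The margin was 1 SD for a level and a factor of 1.5 for a spread, a count or a percentage. Rescaling each library to an equal sum of 1000000 changes the unit and raised every level, to 7028 for Ahsg, 1826 for Igfbp4, 863 for Igfbp2, 646 for Fetub, 284 for Lect2, 143 for Tsku, 75.3 for Inhbe and 1.19 for Enho. It left 0 of 8 members past Dixon's critical value in place of 1. Lect2 had a range under 1.5-fold with median-ratio scaling. The 5 members lowest in liver 2 were the same under both scalings, while the number of the 7 expressed members highest in liver 4 went from 3 to 0 and in liver 3 from 4 to 5, checks chosen after seeing the data. The SD of Enho was 0.77 with a pseudocount of 0.1 and 0.082 with 5, as its level is below 1 FPKM. Leaving out each liver in turn gave SDs from 0.089 (without liver 1) to 0.27 for Fetub, from 0.020 (without liver 2) to 0.35 for Lect2, from 0.19 (without liver 2) to 0.49 for Igfbp2 and from 0.15 (without liver 2) to 0.36 for Enho. The number of members with a 1.5-fold range was between 3 (without liver 2) and 6 when a liver was left out, the number of expressed members with an SD of at least 0.25 between 2 (without liver 2) and 5 (added after seeing the data), and the share of expressed genes with a 1.5-fold range between 16.3% (without liver 3) and 22.9%, where fewer livers narrow any range. That share was 18.1% with a minimum mean of 5 FPKM, 41.7% with 0.1 FPKM and 42.5% with no minimum. No paired analysis was possible because the livers form a single group. Depth limits Enho most, at about 4 to 20 fragments per liver by the estimate used. Other length offsets put the depth between 18.2 and 21.1 M fragments, but with the same fixed window, so they are no independent check.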
